A study of Mus musculus with 8 samples.

Results

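The monocyte identity genes are 10 genes that mark cells of the monocyte lineage, namely Lyz1, Lyz2, Ly6c1, Ly6c2, F13a1, Mpeg1, Cd68, Ms4a6c, Ms4a6d and Ms4a4c. They were taken from the deposited table by gene symbol, and all 10 were found among its 48500 genes. RNA-seq compared Nynrin-KO (Nynrin-/-) with WT (Nynrin+/+) leukaemia stem cells, taken from mice that carried acute myeloid leukaemia, in 4 libraries of each genotype, named here KO1 to KO4 and WT1 to WT4. In both groups the leukaemia was driven by HOXA9 and MEIS1, and the cells were sorted from bone marrow as GFP+, c-Kit+ and Gr-1-, about 10000 cells for each library. Age, strain and the making of the knockout were not given in the sources used here. Whether each library came from its own mouse is not stated either, and the p-values then cover only library-to-library spread, which may be technical. The question addressed here is how monocyte genes stood in these leukaemia cells without Nynrin, which encodes a protein with a NYN ribonuclease domain.

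Monocytes arise in the marrow from progenitors that granulocytes share, and classical mouse monocytes carry high Ly6C at their surface. They hold lysozyme and lysosomal proteins for killing and digesting microbes, and they pass into tissues where they can become macrophages or dendritic cells. Several of these genes are also transcribed in granulocytes and their precursors, lysozyme among them, so no single gene of the set defines a monocyte. In RNA from sorted pools, fewer cells of a type and less RNA per cell cannot be told apart.

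The libraries held 1825620 to 28687760 recovered reads in Nynrin-KO and 1961271 to 33071573 in WT. Nynrin was at 0.0982 to 0.437 FPKM (reads scaled to transcript length and to the library's total) in Nynrin-KO and 0.008 to 0.286 FPKM in WT, so its level does not check the labels. Kit was at 2.92 to 4.91 FPKM in Nynrin-KO and 2.63 to 6.40 FPKM in WT. Ly6g, part of the Gr-1 antigen, was at 93.5 to 264 FPKM in Nynrin-KO and 0.707 to 49.3 FPKM in WT, although Gr-1+ cells had been gated out. Sex follows genotype in all libraries but 1: Xist was at no more than 0.366 FPKM in KO2, KO3 and KO4, against 15.2 to 26.5 FPKM in WT, while KO1 held both Xist (12.7 FPKM) and the Y-linked Ddx3y (2.18 FPKM). Sex and genotype cannot be told apart in the results that follow. The repeat-like gene model Gm10800 splits the libraries across the groups, with KO2, KO4 and WT1 at 3349, 3990.4 and 6076 FPKM and the other 5 libraries at 28612 FPKM or more.

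The monocyte identity genes did not move as a block in Nynrin-KO cells. F13a1 fell 5.11-fold, with no overlap between the groups. Ms4a6d rose 5.60-fold. The other 8 genes did not pass the threshold. All 10 genes stood at 1 FPKM or more in every library and so passed the filter on low values without help from either group. With limma, tested over all 12524 genes that passed the filter and Benjamini-Hochberg adjusted, 2 of the 10 had an adjusted p under 0.05, against 27.9% of all genes tested. In single directions, 1 of 10 rose against a background of 14.0%, and 1 of 10 fell against 13.8%. The groups did not overlap for 1 of the 10, against 31.7% of all genes tested. These shares are close to or under the background, so the counts show nothing particular to the set. The log2 change was positive for 7 genes and negative for 3, with a median of 0.77, beside -0.03 over all genes tested. The members' median was 0.443 without WT1, 0.453 without KO2, 1.13 without KO1 and 0.306 in the libraries high in Gm10800.

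**Figure D1:**
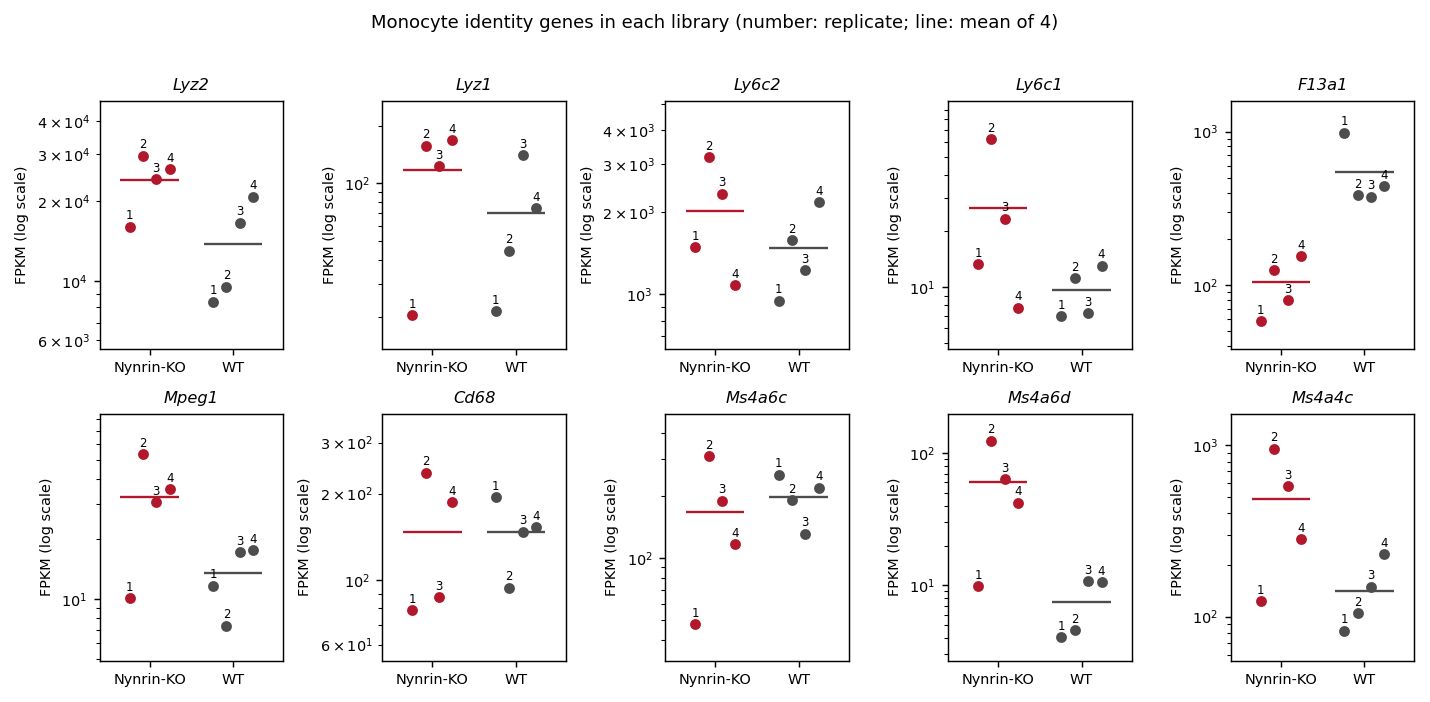
FPKM of the 10 monocyte identity genes on a log axis, each gene with its own scale, in the 4 Nynrin-KO and the 4 WT libraries; numbers give the replicate and lines the mean of 4. F13a1 is the gene whose groups do not overlap, at 57.9 to 155 FPKM in Nynrin-KO and 377 to 984 FPKM in WT, and KO1 is the lowest Nynrin-KO library in 8 of the 10 panels.

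Per length, lysozyme M stood far above the rest. Averaged over the 8 libraries, Lyz2 was at 18976.5 FPKM and Ly6c2 at 1755 FPKM. F13a1 and Ms4a4c followed at 326 and 313 FPKM, Ms4a6c, Cd68 and Lyz1 at 182, 147 and 93.8 FPKM, and Ms4a6d, Mpeg1 and Ly6c1 at 33.8, 22.9 and 18.2 FPKM. Within each of these last groups the genes' ranges over the libraries overlapped. The order also depended on the genotype, since F13a1 was below Ms4a4c in all 4 Nynrin-KO libraries and above it in all 4 WT libraries. By identifier and mm10 position the genes not placed further on are Ly6c1 (ENSMUSG00000079018) and Ly6c2 (ENSMUSG00000022584) on chromosome 15, at 75044018 to 75048830 and 75108158 to 75111970, and Cd68 (ENSMUSG00000018774) on chromosome 11 at 69664213 to 69666153. On chromosome 19 lie Ms4a4c (ENSMUSG00000024675) at 11404770 to 11427246, Ms4a6c (ENSMUSG00000079419) at 11469366 to 11482192, Ms4a6d (ENSMUSG00000024679) at 11586604 to 11604849 and Mpeg1 (ENSMUSG00000046805) at 12460779 to 12465283. Levels are per length of the longest annotated transcript, which for Ly6c2 is 2680 bases against 844 for Ly6c1.

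Lyz2 encodes lysozyme M, the enzyme that cleaves bacterial cell walls and is made in quantity by monocytes, macrophages and neutrophils. Its level was 16060.2, 29691, 24253 and 26394 FPKM in KO1 to KO4, against 8391, 9560.3, 16631 and 20831 FPKM in WT1 to WT4. The highest WT library lay under KO2, KO3 and KO4, and KO1 lay within the WT range. The gene took 2.11% to 3.91% of recovered reads in Nynrin-KO and 1.10% to 2.74% in WT. The mean was 24100 ± 5808 FPKM in Nynrin-KO and 13853 ± 5907 FPKM in WT (SD, n = 4 each), a log2 change of 0.86 with a 95% interval of 0.11 to 1.62 (limma adjusted p = 0.0848). It passed the threshold with voom on recovered reads (adjusted p = 0.0456) and without WT4 (log2 change 1.09, adjusted p = 0.0387), in a range of 0.0387 to 0.553 over all alternatives.

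Lyz1 encodes lysozyme P, the form known from Paneth cells of the intestine, and lies beside Lyz2 on chromosome 10 (ENSMUSG00000069515 and ENSMUSG00000069516; mm10, 117287797 to 117292868, with Lyz2 at 117277331 to 117282321, both on the minus strand). The last 100 bases before the RefSeq starts of these genes are shown because they let the reader see how close the copies are. They come from RefSeq on GRCm38.p6, at chr10:117282273-117282372 for Lyz2 and chr10:117292869-117292968 for Lyz1, and part of the Lyz2 window falls within the gene's span given above, which follows GENCODE. Capitals mark the 8 positions at which they differ:
Lyz2: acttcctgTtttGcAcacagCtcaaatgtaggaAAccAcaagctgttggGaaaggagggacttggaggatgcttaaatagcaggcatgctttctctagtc
Lyz1: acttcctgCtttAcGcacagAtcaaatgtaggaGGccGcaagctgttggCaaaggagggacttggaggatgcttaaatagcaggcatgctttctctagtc
Of all 50-base windows of the longest Lyz1 transcript, 16.1% also occur in Lyz2, so a small share of reads could belong to either gene, and with Lyz2 at this level the value of Lyz1 is uncertain. Lyz1 was at 20.6, 158, 124 and 167 FPKM in KO1 to KO4, against 21.6, 44.5, 140 and 74.5 FPKM in WT1 to WT4. KO1 and WT1 were alike and low, and the groups overlapped. The log2 change was 0.68 with an interval from -1.01 to 2.37 (limma adjusted p = 0.537). It was 1.37 without KO1, 0.42 without KO2, 0.39 without KO4, 0.23 without WT1 and 1.11 without WT3.

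Ly6c2 and Ly6c1 encode the Ly6C proteins, small GPI-anchored molecules of the Ly6 family; high Ly6C marks classical monocytes, and Ly6c1 is also known from endothelium. Antibodies against Gr-1 bind Ly6G and in common clones Ly6C too. The clone was not given in the sources used here, so the sort may have acted on the products of both genes. Ly6c2 was at 1489, 3193, 2342 and 1077 FPKM in KO1 to KO4, against 948, 1581, 1229 and 2178 FPKM in WT1 to WT4. The groups overlapped over most of their range, with KO4 below 3 of the WT libraries. The log2 change was 0.39 with an interval of -0.47 to 1.25 (limma adjusted p = 0.476), and with 1 library left out it ranged from 0.13 without KO2 to 0.66 without KO4. Ly6c1 was at 13.2, 62.4, 23.3 and 7.76 FPKM in KO1 to KO4, against 7.02, 11.2, 7.24 and 13.1 FPKM in WT1 to WT4. KO2 stood apart at the top and KO4 lay in the WT range, and the log2 change of 1.02 did not pass (adjusted p = 0.191). It was 0.49 without KO2 and 1.44 without KO4. Its values rest on as few as 12 reads, in WT3, and 36.7% of the 50-base windows of its transcript occur in another gene, mostly Ly6c2. The 7 endothelial markers had a summed level of 1.15 to 7.25 FPKM in Nynrin-KO and 1.21 to 3.26 FPKM in WT.

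Cd68 and Mpeg1 belong to the machinery for digesting and killing microbes. Cd68, which encodes a lysosomal glycoprotein of phagocytes, was at 79.1, 236, 87.7 and 187 FPKM in KO1 to KO4, against 195, 94.4, 147 and 153 FPKM in WT1 to WT4. The means were 148 ± 76.9 FPKM in Nynrin-KO and 147 ± 41.1 FPKM in WT (SD, n = 4 each), and the log2 change of -0.11 had an interval of -0.99 to 0.78 (limma adjusted p = 0.867). The sign of this small change turned under 7 of 24 alternatives. Mpeg1, which encodes the pore-forming protein perforin-2, was at 10.1, 53.2, 30.6 and 35.5 FPKM in KO1 to KO4, against 11.6, 7.34, 17.2 and 17.6 FPKM in WT1 to WT4. KO2, KO3 and KO4 were all above the WT libraries and KO1 was within them. The log2 change of 1.07 did not pass (adjusted p = 0.125) and did without KO1 (1.53, adjusted p = 0.0170).

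F13a1 (ENSMUSG00000039109) had the smallest adjusted p of the 10 genes. It encodes the A subunit of coagulation factor XIII, the transglutaminase that cross-links fibrin, and is transcribed in monocytes, macrophages and megakaryocytes. It spans mm10 chromosome 13 from 36867178 to 37050244 on the minus strand. The 250 bases before its distal annotated start (RefSeq, GRCm38.p6, chr13:37050245-37050494, minus strand) are printed because this is the gene that fell, with a match to GAGGAA, letters bound by the myeloid factor PU.1, in capitals. No match lies in the window before its other annotated start (chr13:37049214-37049463), which is not printed:
F13a1: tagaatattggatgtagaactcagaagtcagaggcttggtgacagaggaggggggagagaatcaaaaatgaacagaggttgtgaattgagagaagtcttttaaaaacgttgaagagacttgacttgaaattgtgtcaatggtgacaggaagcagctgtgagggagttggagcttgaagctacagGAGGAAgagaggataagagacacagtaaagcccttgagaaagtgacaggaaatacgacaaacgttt
F13a1 was at 57.9, 125, 79.8 and 155 FPKM in KO1 to KO4, against 984, 387, 377 and 440 FPKM in WT1 to WT4. Every Nynrin-KO library was below every WT library. The means were 105 ± 43.9 FPKM in Nynrin-KO and 547 ± 293 FPKM in WT (SD, n = 4 each). The log2 change was -2.35 (SE 0.40, 95% interval -3.25 to -1.45, limma adjusted p = 0.00408). The values rest on at least 576 reads in each library, no 50-base window of the transcript occurs in another gene, and 1.1% of its exon bases overlap another gene, Gm30489 on the other strand. The gene passed the 0.05 threshold under all 24 alternatives, with log2 changes of -2.69 to -1.78 and adjusted p of 0.000421 to 0.0198. Without WT1, the highest WT library, the change was -2.03, and within the 5 libraries high in Gm10800 it was -2.54. Megakaryocyte and platelet markers had a summed level of 6.20 to 9.88 FPKM in Nynrin-KO and 3.43 to 8.53 FPKM in WT over the 7 genes found. Of these 3 were tested, and Pf4, the 1 called, passed the filter through the Nynrin-KO libraries alone, on 2 to 22 reads in each of them. The 14 macrophage markers summed to 262 to 719 FPKM in Nynrin-KO and 50.4 to 77.6 FPKM in WT. The part of these cell types in the F13a1 values was not tested.

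Of the letters searched on both strands in the 250 bases before each start, GAGGAA (PU.1) was in 7 of 12 windows of 9 members, beside 23.3% of 32851 windows over all genes. TTGCNNAA (C/EBP) was in 2 of 12, beside 9.6%, and GAAA followed by any 2 bases and GAAA (interferon-stimulated response element) in 0, beside 3.0%. Windows of a gene with several annotated starts can overlap. Both windows of Ly6c1 overlap, as do both of Ly6c2, and all of these hold GAGGAA. Ms4a6d has no entry in the table.

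**Figure D2:**
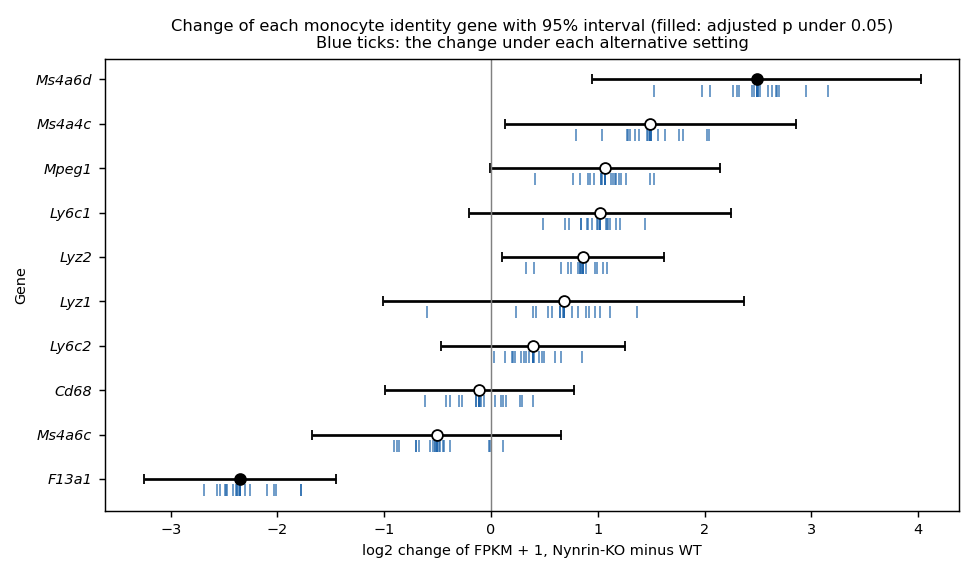
Log2 change of FPKM + 1, Nynrin-KO minus WT, for each monocyte identity gene with its 95% limma interval (black) and its value under each of the 24 alternatives (blue ticks). F13a1 at -2.35 and Ms4a6d at 2.49 are the filled points, with an adjusted p under 0.05, and the intervals of Lyz1, Ly6c1, Ly6c2, Mpeg1, Cd68 and Ms4a6c include 0.

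The Ms4a genes encode membrane-spanning proteins of immune cells, several of them found on monocytes and macrophages. Ms4a6d was at 9.82, 125, 63.3 and 42.3 FPKM in KO1 to KO4, against 4.03, 4.58, 10.8 and 10.6 FPKM in WT1 to WT4. KO2, KO3 and KO4 stood well above the WT libraries, and KO1 lay just under WT3 and WT4. The means were 60 ± 48.3 FPKM in Nynrin-KO and 7.5 ± 3.69 FPKM in WT (SD, n = 4 each). On the log2 scale the gene rose by 2.49 (SE 0.68, 95% interval 0.95 to 4.02, limma adjusted p = 0.0256). The call was lost, with adjusted p of 0.0523 to 0.0664, when KO2, KO3, KO4, WT1 or WT2 was left out, and it held without KO1 (3.16, adjusted p = 0.00633). Within the 5 libraries high in Gm10800, which keep KO1 and KO3 of the Nynrin-KO group, the change was 1.53 (adjusted p = 0.251).

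Ms4a4c was at 123, 951, 577 and 283 FPKM in KO1 to KO4, against 82.8, 105, 149 and 230 FPKM in WT1 to WT4. The order of the Nynrin-KO libraries was the same as for Ms4a6d, with KO2 highest and KO1 lowest and inside the WT range. The log2 change of 1.49 (95% interval 0.13 to 2.86) did not pass (limma adjusted p = 0.0958), and it passed without KO1 (2.02, adjusted p = 0.0223) and under quantile normalization (2.04, adjusted p = 0.0359).

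In Ms4a6c the order of the Nynrin-KO libraries was again that of Ms4a6d, but the group change had the other sign. It was at 47.8, 311, 189 and 116 FPKM in KO1 to KO4, against 253, 190, 131 and 219 FPKM in WT1 to WT4. The highest and the lowest of the 8 libraries were both Nynrin-KO, and the log2 change of -0.51 had an interval of -1.68 to 0.65 (limma adjusted p = 0.496). It was -0.02 without KO1 and -0.91 without KO2. Its value is uncertain, because 53.1% of its exon bases overlap BE692007, a gene on the other strand, and whether counting used strand was not given in the sources used here. BE692007 was at 4.04 to 18.1 FPKM in Nynrin-KO and 4.35 to 7.95 FPKM in WT.

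The balance between related genes was compared as a ratio of FPKM within each library, for 3 pairs chosen after their values were seen. Ms4a6d stood at 0.205, 0.400, 0.335 and 0.364 of Ms4a6c in KO1 to KO4, against 0.0159, 0.0242, 0.0822 and 0.0485 in WT1 to WT4. The groups did not overlap, KO1 included, and the log2 ratio was higher by 3.17 in Nynrin-KO (exact two-sided permutation p = 0.0286, the smallest that 4 against 4 can give, 0.0857 adjusted over the 3 pairs). The value of Ms4a6c is uncertain, because 53.1% of its exon bases overlap BE692007, and so is its ratio to Ms4a6d. Ly6c2 was 51.1 to 139 times Ly6c1 in Nynrin-KO and 135 to 170 times in WT (exact p = 0.0571, adjusted 0.0857). That ratio rests on as few as 12 reads of Ly6c1, in WT3. Without KO4 the adjusted exact p of both the Ms4a6d and the Ly6c2 pair was 0.0429. For 7 of the 8 libraries left out in turn neither pair passed 0.05, with adjusted exact p up to 0.0857 and 0.171. Lyz2 was 158 to 779 times Lyz1 in Nynrin-KO and 118 to 389 times in WT (exact p = 0.83, also after adjustment).

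**Figure D3:**
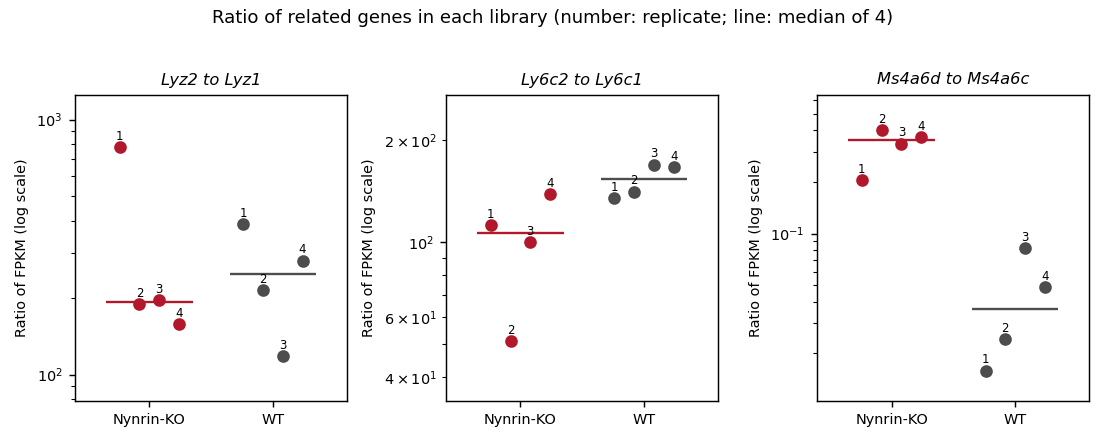
Ratio of FPKM between related monocyte genes within each library, on log axes; numbers give the replicate and lines the median of 4. The ratio of Ms4a6d to Ms4a6c had a median of 0.349 in Nynrin-KO and 0.0363 in WT, with no overlap, while the other pairs overlapped.

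Library KO1 stood apart within these genes. It was the lowest of the Nynrin-KO libraries for 8 of the 10, all but Ly6c1 and Ly6c2, and KO2 was the highest for 8, all but F13a1 and Lyz1. Among the WT libraries WT1 was the lowest for 6 and WT4 the highest for 5. KO1 also had the highest summed level of the 13 neutrophil markers, at 283955 FPKM, against 125165 to 214685 FPKM in the other Nynrin-KO libraries. Its part in the results was not tested beyond the values without it: 3 of the 10 genes then rose, Ms4a6d, Ms4a4c and Mpeg1, beside 1265 of 11756 genes tested in that fit, and F13a1 still fell by 2.1 on the log2 scale (limma adjusted p = 0.0110).

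Genes beyond the set that make or mark monocytes were counted as surface receptors and as transcription factors. Of 14 receptor and surface genes 6 rose and 0 fell; the median log2 change over the 14 was 1.24. Over all genes tested 14.0% rose and 13.8% fell. The list also holds Cd177, a gene of neutrophils, and the secreted chemokine Ccl9, and neither passed. Fcgr4 and Fcgr1, which encode Fc receptors for IgG, rose by 2.67 and 3.54, with Fcgr4 at 40.8 ± 9.33 FPKM in Nynrin-KO and 5.96 ± 2.85 FPKM in WT. Fcgr1 averaged 21.4 ± 19.9 FPKM in Nynrin-KO and 0.657 ± 1.03 FPKM in WT. It reached 1 FPKM in all 4 Nynrin-KO libraries and in 1 WT library, so the filter bears on it. Fcgr3, of the same family, averaged 384 ± 90.2 FPKM in Nynrin-KO and 425 ± 96.7 FPKM in WT and did not pass (limma adjusted p = 0.714). Cd300a, an inhibitory receptor, and the lectin Clec4a1 rose by 1.84 and 3.13. Itgam and Itgal rose as well, and several of these genes are shared with neutrophils, whose marker levels are given below. Csf1r, the receptor for the monocyte growth factor M-CSF, missed the threshold at 91.1 ± 49.7 FPKM in Nynrin-KO and 31.6 ± 6.28 FPKM in WT (log2 change 1.3, adjusted p = 0.0531), and Ccr2, the receptor that guides monocytes out of the marrow, averaged 105 ± 58.8 FPKM in Nynrin-KO and 79.2 ± 18.6 FPKM in WT (adjusted p = 0.805). The number that rose was 8 without KO1 and 2 of 13 within the libraries high in Gm10800.

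Of 10 monocyte transcription factors 1 rose, 1 fell and 8 did not pass, with a median log2 change of 0.50. Over all genes tested 14.0% rose and 13.8% fell. Without KO1, 2 of the factors rose. Irf8, a factor that monocyte progenitors need, was at 21.6, 70.4, 24.3 and 34.3 FPKM in KO1 to KO4, against 172, 78.4, 139 and 91.9 FPKM in WT1 to WT4. It fell by 1.74 on the log2 scale with no overlap (limma adjusted p = 0.0126); 0 factors were called lower without both libraries numbered 1. Nr4a1, which patrolling monocytes need and which many stimuli induce, averaged 46.4 ± 20.6 FPKM in Nynrin-KO and 10.7 ± 2.0 FPKM in WT, and rose by 1.93 (adjusted p = 0.00329). Spi1, which encodes PU.1, averaged 92.1 ± 49.5 FPKM in Nynrin-KO and 69.4 ± 30.5 FPKM in WT and did not pass (adjusted p = 0.653).

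**Figure D4:**
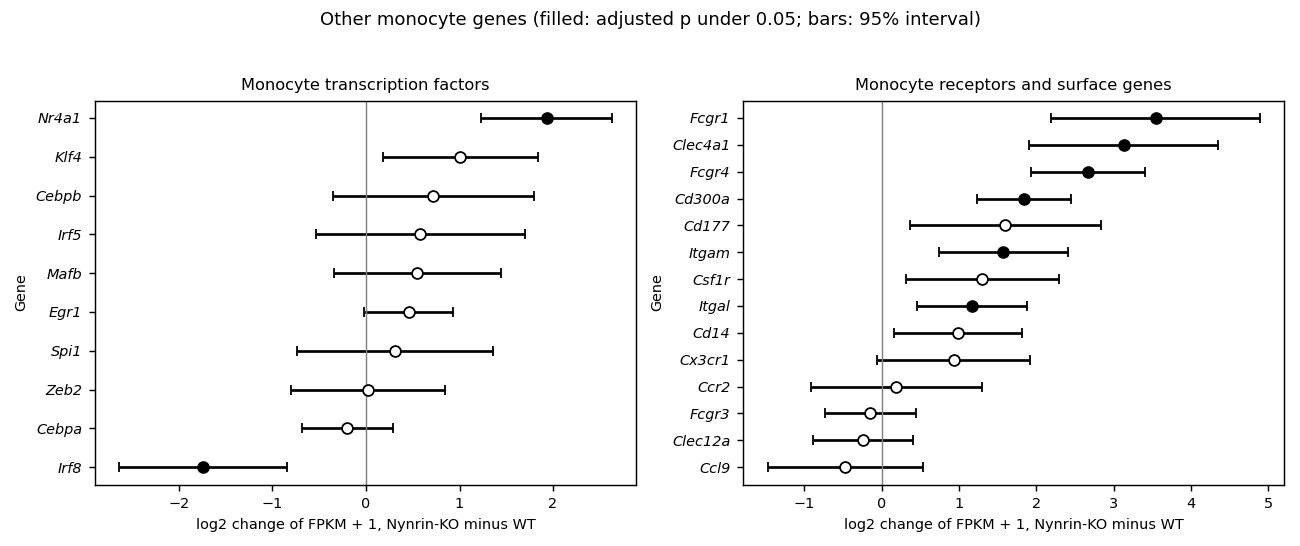
Log2 change of FPKM + 1, Nynrin-KO minus WT, with 95% limma intervals for 10 monocyte transcription factors (left) and 14 monocyte receptor and surface genes (right); filled points have an adjusted p under 0.05. Irf8 at -1.74 and Nr4a1 at 1.93 are the filled factors, and 6 receptor and surface genes are filled, all above 0.

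Relatives of the Ms4a genes lie around them on chromosome 19, and most listed relatives of the Ly6C genes lie on chromosome 15, with Ly6g6c, Ly6g6d and Ly6g6e on chromosome 17. Of 12 other Ms4a genes 8 passed the filter on low values, and of these 5 rose and none fell. The counts of both families stand beside 14.0% that rose and 13.8% that fell over all genes tested. Ms4a4a, next to Ms4a4c, was at 37.1 to 232 FPKM in Nynrin-KO and 5.41 to 23.4 FPKM in WT, and rose by 3.47 (limma adjusted p = 0.00467). Ms4a2, Ms4a7 and Ms4a8a rose by 2.34, 1.43 and 2.1, but each passed the filter through the Nynrin-KO libraries alone, so the filter bears on them. Of the 8, 3 did not pass the test, among them Ms4a6b at 107 ± 74.9 FPKM in Nynrin-KO and 45.2 ± 8.56 FPKM in WT. Of 12 other Ly6 genes on the list 5 passed the filter, and 4 rose and none fell. Ly6i, Ly6a and Ly6d rose by 3.99, 3.08 and 2.55, and Ly6g by 3.23, of which Ly6d passed the filter through the Nynrin-KO libraries alone, while Ly6e did not pass (-0.55, adjusted p = 0.346). Ly6a2, which is not on the list and was named after its values were seen, lies next to Ly6c2 and averaged 1519.8 FPKM in Nynrin-KO and 255 FPKM in WT (log2 change 2.67, limma adjusted p = 0.0206). With it, 5 of the 8 genes tested in the chromosome 15 stretch rose, Ly6c1 and Ly6c2 included among the 8. Of the other Ms4a genes, 4 of 5 tested rose without KO1, 2 of 5 without KO2, KO3 or KO4, and 1 of 4 in the libraries high in Gm10800. Of the other Ly6 genes, 2 of 4 tested rose without any 1 of the Nynrin-KO libraries, and 1 fell without KO2.

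**Figure D5:**
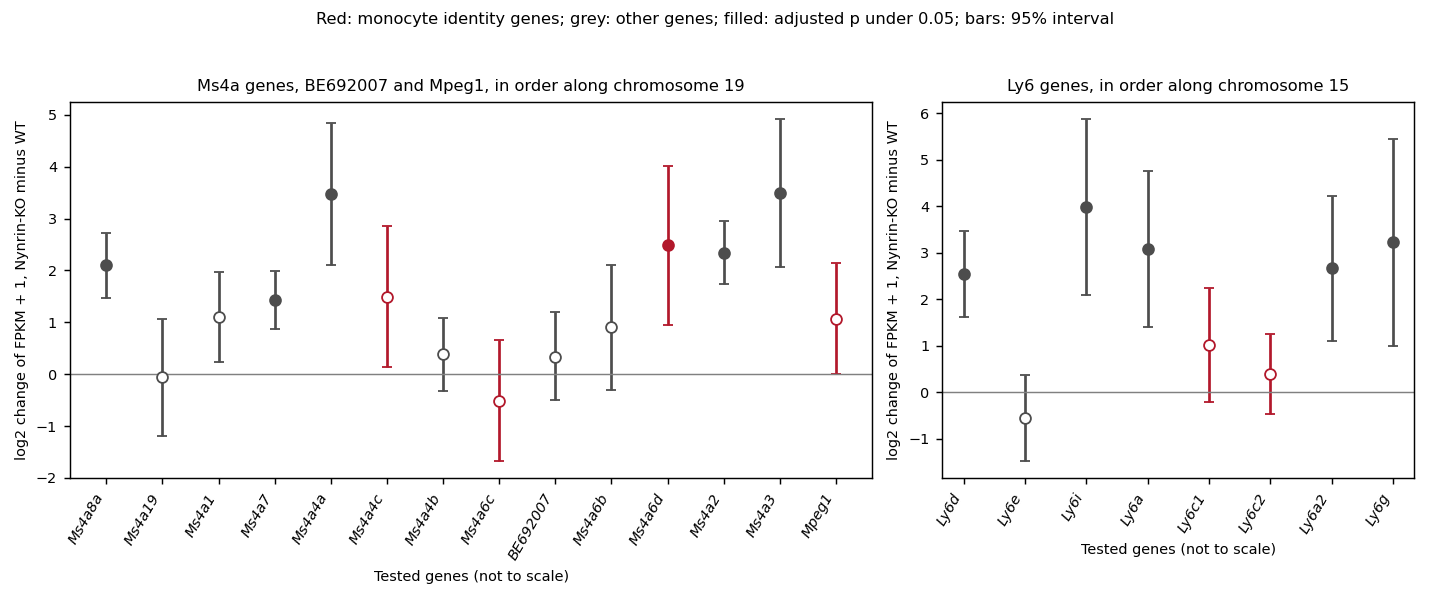
Log2 change of FPKM + 1, Nynrin-KO minus WT, with 95% limma intervals for the tested Ms4a genes with BE692007 and Mpeg1 (left) and the tested Ly6 genes (right), in chromosome order but not to scale; monocyte identity genes are red and filled points have an adjusted p under 0.05. Ms4a6d at 2.49 is the filled red point. Ms4a6c at -0.51 and Ly6c2 at 0.39 are open, as are their neighbours BE692007 at 0.34, Ms4a6b at 0.9 and Ly6c1 at 1.02. Ly6a2 beside Ly6c2 is filled at 2.67, as are Ms4a4a at 3.47 and Ly6i at 3.99 further off.

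The genes whose pattern over the 8 libraries was most like that of Lyz2 were Crip1, Cybb and Ifi204 (Pearson r = 0.979, 0.966 and 0.955 on log2(FPKM + 1)). Cybb encodes the catalytic subunit of the phagocyte NADPH oxidase. Those most like Ms4a6c were Tifa, Thbd and Rbks (r = 0.962, 0.946 and 0.939), and Thbd encodes thrombomodulin. The points share library, depth and genotype, and with many genes and 8 libraries some high values arise in any such search.

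Of the markers of other cell types, most of those tested for neutrophils and macrophages rose, and the other lists had fewer genes tested. Over all genes tested 14.0% rose and 13.8% fell. The part of these cell types in the results above was not tested. The 13 neutrophil markers had a summed level of 125165 to 283955 FPKM in Nynrin-KO and 3004 to 104682 FPKM in WT. The low WT value is WT1 alone, with the other WT libraries at 55514 FPKM or more, and WT1 was also the lowest WT library for 6 of the monocyte identity genes. S100a8, S100a9, Ngp and Camp made up most of the summed level, and none of them passed (limma adjusted p = 0.0975, 0.0943, 0.0958 and 0.1). Of the markers, 8 of 13 rose, among them Csf3r, Cxcr2, Retnlg and Wfdc21, and none fell. That number was 4 without KO1, KO2, KO4 or WT2 and with the replicate number as a block, 5 without KO3, 11 without WT1 and 12 with a Gm10800 covariate. Of the 12 macrophage markers tested 9 rose, among them C1qa, Vcam1, Apoe and Axl, while Adgre1, which encodes F4/80, was at 41.6 ± 20.4 FPKM in Nynrin-KO and 38.8 ± 4.68 FPKM in WT. Of these 12, 5 passed the filter through the Nynrin-KO libraries alone, and without any 1 Nynrin-KO library 5 of 7 tested rose. Dendritic cell markers gave 1 higher (H2-Aa) and 1 lower (Flt3) of 7 tested, and B cell markers 1 higher (Cd79a) of 3. T and NK cell markers gave 2 higher (Nkg7 and Gzma) of the 2 tested among 7 listed. Erythroid markers gave 3 higher (Hbb-bs, Hba-a1 and Car2) of the 3 tested among 8 listed. The other listed T, NK and erythroid genes did not pass the filter. Cd79a and the 3 erythroid genes passed the filter through the Nynrin-KO libraries alone. Gzma reached 1 FPKM in all 4 Nynrin-KO libraries and in 1 WT library, so the filter bears on it too. Egfl7, the 1 endothelial gene tested, did not pass. No listed marker in any of these lists was at 0 in all 8 libraries.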

How the data were processed

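RNA-seq values of 4 Nynrin-KO and 4 WT libraries were used. The authors deposited FPKM for 48500 genes, read as FPKM because value times transcript length gave the same total in every column; the header names no unit. Per the submitters' processing notes the build was mm10 and the tools Bowtie 0.12.9, Cufflinks 2.1.1 and HTSeq; roles, strand use and the handling of reads matching several genes were not given in the sources used here. Smart-Seq V4 was used, per the labels' protocols. Whole reads were recovered from FPKM and the longest GENCODE M21 transcript (99.52% of genes matched) for at least 99.45% of values checked (tolerance 0.1 read). Depth ranged 18.1-fold, and 3 reads of a 1 kb transcript are worth 0.0907 FPKM in WT1 and 1.64 FPKM in KO3; these floors cover counting error only.

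The 12524 genes that reached 1 FPKM in 4 or more libraries entered a limma fit (version 3.58.1 under R 4.3.3) of log2(FPKM + 1), with group as the only term, trended robust variances, two-sided, Benjamini-Hochberg threshold 0.05; the scale understates changes of low genes. The fit was checked on simulated data. Ratios used exact permutation (Python 3.11.15). The members and all lists were chosen with earlier results of these data known. Named were all members, checks of genotype, sort, sex and Gm10800, up to 4 genes per list past the threshold with the smallest p (2 with the highest mean FPKM where none passed), and the 3 genes most like Lyz2 and Ms4a6c with a mean of at least 5 FPKM. Itgam, Itgal, Csf1r, Ccr2, Fcgr3, Spi1, Ms4a6b, Ly6e, Adgre1, Cd177, Ccl9, S100a8, S100a9, Ngp, Camp, Ly6a2 and BE692007 were added after their values were seen. A listed surface gene is not reported here and was left out of its list. Alternatives covered pseudocount, filter, scaling, limma options, libraries, the replicate number as a block, a Gm10800 covariate, voom and the threshold. Same-numbered libraries did not deviate together, except those numbered 3 (r = 0.329).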

Additional observations from a re-analysis of the deposited data

Results flagged for a closer look

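F13a1 was at 984 FPKM in WT1, far from the other WT libraries, which reached at most 440 FPKM; the gap took 0.897 of the range of the 4 WT values, above Dixon's 95% critical value for groups of 4. It was the only such value among 20 groups of 4 looked at, where chance gives about 1 in 20. F13a1 stayed lower in Nynrin-KO without WT1 (log2 change -2.03, limma adjusted p = 0.00721).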

How the results depend on the processing

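F13a1 was the single member called lower under all 24 alternatives. The number of members that rose, 1 in the fit reported, was 0 without a filter on low values, without both libraries numbered 3, in the libraries high in Gm10800 and at a threshold of 0.01. It was 2 under quantile normalization, voom and without both libraries numbered 1, and 3 at a threshold of 0.1. With 1 library left out it ranged from 0 to 3. Over all genes, 790 rose and 908 fell without a filter, 1041 and 1091 with median-of-ratios scaling, 765 and 814 without both libraries numbered 1, 211 and 714 in the libraries high in Gm10800, and 671 and 783 at 0.01, against 1754 and 1734 in the fit reported. With 1 library left out 1020 to 1875 rose and 1204 to 1852 fell. Fewer libraries, or more genes to adjust over without a filter, bear on these counts by construction; for the scaling the cause was not tested.

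Signs turned for members that were not called. Cd68 was at 0.39 under quantile normalization, 0.27 with array weights, 0.14 without KO1, 0.09 without KO3, 0.04 without WT1 (-0.38 to 0.14 with any 1 library left out), 0.29 without both libraries numbered 1 and 0.11 without both numbered 3. Lyz1 was at -0.60 in the libraries high in Gm10800 and Ms4a6c at 0.11 without both libraries numbered 1. The log2 ratio of Lyz2 to Lyz1, 0.18 over all libraries, was -0.35 without KO1 and -0.14 without WT3, within -0.35 to 0.43 with any 1 library left out.

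With the replicate number as a block, 1 member rose and 1 fell, and 1357 genes rose and 1481 fell over all genes. The same-numbered libraries' deviations correlated at -0.213, -0.389, 0.329 and 0.008, and only those numbered 3 matched best with each other, so the numbers do not pair the libraries. Depth limits Ly6c1 most, with 12 reads in WT3.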

Other observations

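Of 7 markers of granulocyte-monocyte progenitors, most of them granule genes, 3 fell and 1, Ms4a3, rose, with a median log2 change of -0.83. Over all genes tested 13.8% fell and 14.0% rose. Ctsg, Prtn3 and Mpo, which encode cathepsin G, proteinase 3 and myeloperoxidase of primary granules, fell by 1.96, 1.65 and 0.98 on the log2 scale (limma adjusted p = 0.00499, 0.0103 and 0.0459). Ctsg averaged 846 ± 295 FPKM in Nynrin-KO and 3332 ± 1224 FPKM in WT. Elane and Prss57 of the same list had log2 changes of the other sign, 1.02 and 0.71, and Cst7 was at -0.83. None of these passed (limma adjusted p = 0.101, 0.162 and 0.201). Ms4a3, a gene of these progenitors that lies beside the monocyte Ms4a genes, rose to 119 ± 51.8 FPKM in Nynrin-KO, against 12.1 ± 9.49 FPKM in WT.

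Of 8 stem and progenitor genes 3 fell, namely Cd34, Flt3 and Gata2, and 2 rose, Meis1 and Hoxa9, beside 13.8% and 14.0% of all genes tested. Meis1 reached 1 FPKM in the Nynrin-KO libraries only, so the low-value filter bears on its call. Cd34 averaged 6.26 ± 0.756 FPKM in Nynrin-KO and 86.4 ± 44.3 FPKM in WT (log2 change -3.48, limma adjusted p = 0.000929). Reads of a viral transgene and of the mouse gene cannot be told apart for Hoxa9 and Meis1 in these values.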
